A study of Mus musculus with 12 samples.

Results

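Regulatory T cells that carry a Dicer deletion were compared with control regulatory T cells by small RNA sequencing, using the single library of each genotype, which are 2 of the 12 libraries of the series. The libraries were chosen by their titles and not by any measured value. The Dicer library lists 939 distinct sequences and the control library 962, of all parts of the hairpin. Their mature sequences, guide or passenger, belong to 192 miRNAs in Dicer and 197 in control, out of 207 listed in either. The comparison covers the 166 miRNAs that both libraries list and whose values in the 2 libraries add up to 50 or more.

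The Treg Dicer cells were CD4+CD25+ cells, sorted by flow cytometry, of the spleen and lymph nodes of mice labelled Dicer CD4-cre, in which Dicer is deleted by a Cre recombinase under the CD4 promoter. That promoter is active in T cells from their development in the thymus, so the deletion is not limited to regulatory T cells. The Treg control cells had the same surface markers and organs of origin and came from mice labelled CD4-cre, so both groups carry the recombinase. All mice were backcrossed to C57BL/6 and were 6 to 7 weeks old. Both libraries were cloned from gel-purified RNA of 19 to 30 nt, and adaptors could join only ends of the kind that RNase III enzymes leave, a phosphate at the 5′ end and a hydroxyl at the 3′ end. The number of animals and the extent of the deletion in the sorted cells are not given in the labels, and neither Dicer nor Foxp3 mRNA was measured here, so neither the genotype nor the Treg identity could be checked from these values.

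A miRNA is made in steps. Drosha cuts a hairpin out of the primary transcript in the nucleus, Dicer cuts off the loop of that hairpin in the cytoplasm, and one strand of the remaining duplex, the guide, is loaded into an Argonaute protein while the other, the passenger, is mostly degraded. The seed, bases 2 to 8 of the guide, pairs with target mRNAs. In mice, regulatory T cells without Dicer lose suppressive function and the animals develop autoimmunity, and individual miRNAs such as miR-155 and miR-146a are known to act in these cells.

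The RefSeq mature sequences below (GRCm38.p6, written 5′ to 3′ with the seed in capitals) belong to the miRNAs with the highest ratios, the lowest ratios or the highest levels, on which the comparison turns. Sequences of 131 of the 166 compared miRNAs were matched to RefSeq. The set with the highest ratios is shown together with miR-146a, which has the seed of miR-146b, and miR-16, which has the seed of miR-322.
miR-223: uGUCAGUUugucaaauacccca
miR-503: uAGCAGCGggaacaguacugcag
miR-322: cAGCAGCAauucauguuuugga
miR-16: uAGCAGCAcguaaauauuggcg
miR-450a-5p: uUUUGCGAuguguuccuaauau
miR-30a: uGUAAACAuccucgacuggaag
miR-138: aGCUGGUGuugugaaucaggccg
miR-146b: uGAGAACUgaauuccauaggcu
miR-146a: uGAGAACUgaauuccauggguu
miR-34a: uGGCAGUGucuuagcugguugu
miR-221: aGCUACAUugucugcuggguuuc
miR-183: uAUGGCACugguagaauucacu
The set with the lowest ratios and the abundant miRNAs are as follows.
miR-181d: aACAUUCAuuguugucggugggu
miR-31: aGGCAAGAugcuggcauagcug
miR-219: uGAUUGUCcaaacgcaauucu
miR-101a: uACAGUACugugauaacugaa
miR-21: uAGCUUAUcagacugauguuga
miR-142-5p: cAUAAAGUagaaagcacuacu
miR-29a: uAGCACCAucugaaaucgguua
miR-29b: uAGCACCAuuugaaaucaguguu

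The miRNAs of the Dicer library were, for the most part, those of the control library. The libraries shared 848 sequences, which are 90.3% of the sequences of the Dicer list and 88.1% of those of the control list, and which hold 99.8% of the deposited value in each. The deposited values are normalised, with a total of 1016507 in the Dicer library and 1002325 in the control library, and no sequence is listed below 10. Each value is therefore relative to the other miRNAs of its own library, and a loss common to every miRNA would not show. The number of reads behind the values is unknown, so no counting interval can be given, and with 1 library per genotype no difference below has a replicate check or a test.

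For each miRNA, the values of its guide and passenger sequences were summed by name, and copies with the same mature sequence, such as those of miR-16, cannot be told apart. The ratio is given as the log2 of the Dicer value over the control value, each plus 0.5, minus the same for the median miRNA, which stood at -0.12. It is called the relative log2 ratio below. Of the 166 compared miRNAs, 18 (10.8%) lay at least 1 log2 unit above the median miRNA and 7 (4.22%) at least 1 unit below, 25 (15.1%) in all, and 89 lay within 0.5 of it. Scaled by library totals instead, which puts the median miRNA at -0.15, the split was 15 above and 11 below, and relative ratios between 0 and 0.15 turn negative. Just inside the threshold of 1 unit were miR-374 (1.03) and miR-378* (-1.05), and just outside it were miR-96 (0.98), miR-26b (0.95), miR-146a (0.94), miR-93* (-0.98) and miR-211 (-0.97).

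**Figure D1:**
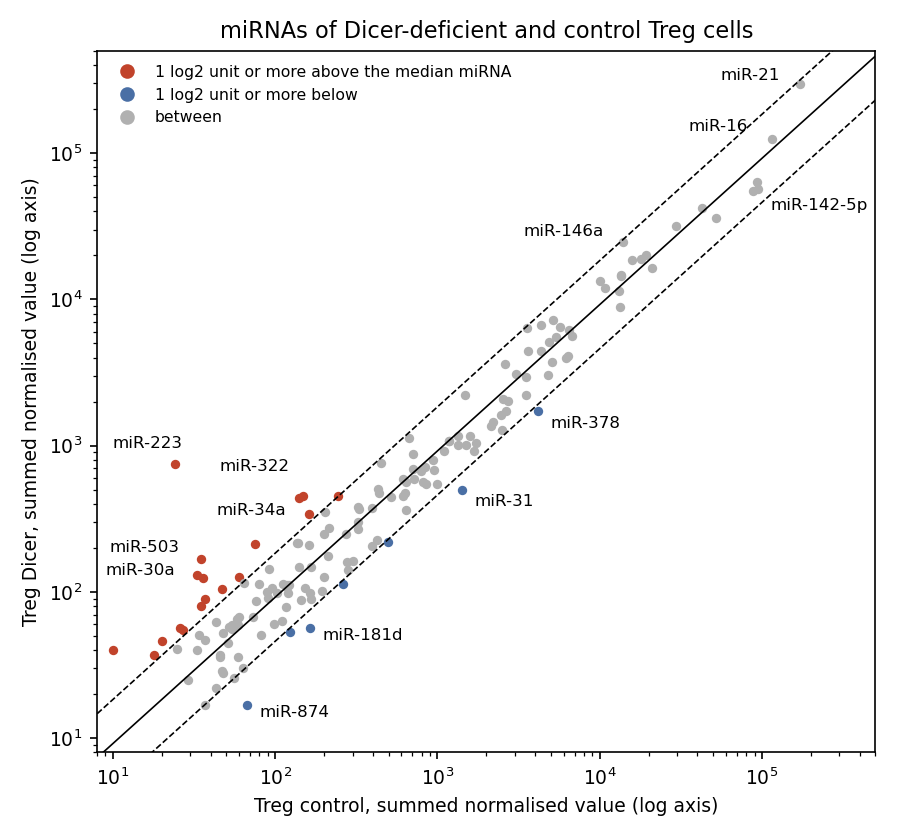
Summed normalised value of each of the 166 compared miRNAs in the Treg Dicer library (vertical, log axis) and the Treg control library (horizontal, log axis), with the median miRNA as a solid line and 1 log2 unit either side as dashed lines. The 18 miRNAs on or above the upper line have at most 243 in the control library, and miR-223 stands farthest from the line, at 746 in Dicer and 24 in control.

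The same few miRNAs led both lists. The 10 most abundant miRNAs of each library took 73.9% of the guide and passenger value in Dicer and 72.9% in control, and 9 of the names were shared. miR-146a was among the 10 in Dicer only and miR-142-3p in control only. miR-21, which is abundant in activated T cells and regulatory T cells, was first in both, at 294500 in Dicer and 171793 in control, which is 29.1% of the Dicer library and 17.2% of the control library and a relative log2 ratio of 0.90.

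After miR-21, and apart from miR-146a, the abundant miRNAs differed less. miR-16, known for restraining the cell cycle, was 124433 in Dicer and 114923 in control (relative log2 ratio 0.24), and miR-15b, made from a locus with another copy of miR-16, was 41848 and 42943 (0.09). miR-142-5p, a miRNA of blood cells, was 56428 in Dicer and 94703 in control (-0.62), and miR-142-3p of the same hairpin was 16404 and 21041 (-0.24). The miR-29 pair was on the lower side as well, with miR-29a at 55407 in Dicer and 87488 in control (-0.54) and miR-29b at 63262 and 92688 (-0.43). Among the let-7 members of the 10 most abundant, let-7g was 36117 in Dicer and 51722 in control (-0.40), let-7f was 31855 and 29674 (0.23), and let-7a was 20186 and 19334 (0.19).

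miR-223, the defining miRNA of neutrophils and monocytes, had the highest ratio of all. It was 746 in Dicer and 24 in control, 30.5 times as much without scaling and 5.05 on the relative log2 scale. It was the only member of the myeloid marker list, so that list gives no second marker to set beside it. Outside the list, pre sequences of miR-511 were 26 in Dicer, not listed in control and 15 in the Treg Drosha library. They were not part of the planned list, are of a kind kept apart from the ratios and stand near the floor of 10. They are therefore not taken as a second marker. The part of myeloid cells in these values was not tested. The hairpin lies on the X chromosome at chrX:96242817-96242926 (GRCm38, plus strand), in an exon of the non-coding transcript F630028O10Rik. The Dicer library lists 7 miR-223 sequences and the control library 1, the 22-nt form, which alone was 410 in Dicer and 24 in control. The 5 forms with the main 5′ end are shown as deposited, with the bases that differ between them at the 3′ end in capitals.
miR-223, 19 nt: tgtcagtttgtcaaatacc
miR-223, 20 nt: tgtcagtttgtcaaataccC
miR-223, 21 nt: tgtcagtttgtcaaataccCC
miR-223, 22 nt: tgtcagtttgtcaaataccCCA
miR-223, 23 nt: tgtcagtttgtcaaataccCCAA
In Dicer these stood at 17, 37, 47, 410 and 206 in order of length, and in control all but the 22-nt form were below the floor of 10.

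Markers of other cell types did not stand apart in this way. The erythroid list (miR-451, miR-144 and miR-486) summed to 991 in Dicer and 1198 in control, with miR-486 not listed in Dicer and at 23 in control. The endothelial list (both arms of miR-126) summed to 62 in Dicer and 34 in control, the mesenchymal list, of which only miR-143 out of 8 members was listed, to 11 in Dicer and 10 in control, and the epithelial list, with 4 and 5 of 8 members listed, to 321 in Dicer and 392 in control. The T lymphocyte list of 9 miRNAs took 54.3% of the Dicer library and 45.1% of the control library. miR-21 alone was 29.1% and 17.2%, and the rest of the list took a smaller share in Dicer than in control. Of the 9 members, 0 lay 1 unit or more from the median miRNA, beside 15.1% of all compared miRNAs. In a bulk sample, fewer cells of a type and less RNA per cell cannot be told apart.

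**Figure D2:**
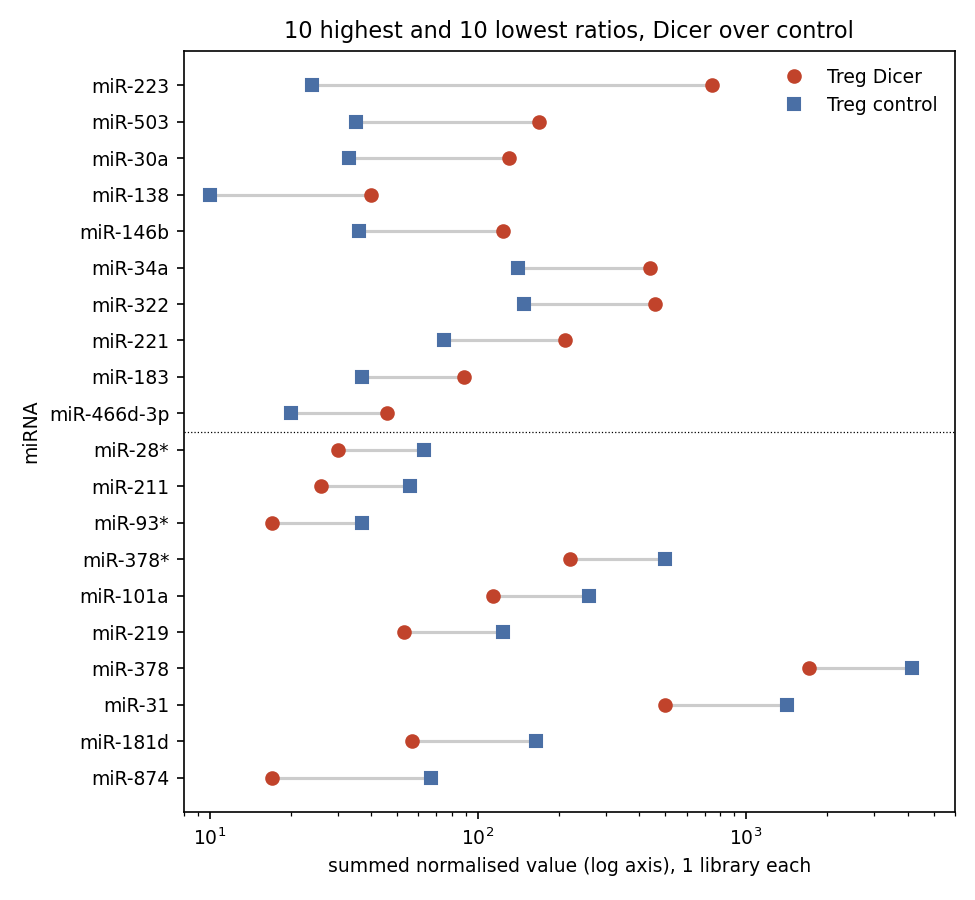
Summed normalised value (log axis) of the 10 miRNAs with the highest and the 10 with the lowest ratio, in the Treg Dicer library (circles) and the Treg control library (squares), 1 library each. miR-223 is the widest gap, at 746 in Dicer and 24 in control, and miR-378 is the most abundant miRNA shown, at 1714 in Dicer and 4155 in control.

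The cluster of miR-322 and miR-503, whose miRNAs are known from mouse muscle cells to slow the cell cycle, followed miR-223. miR-503 was 169 in Dicer and 35 in control (relative log2 ratio 2.38), and miR-322 was 456 and 149 (1.73). miR-450a-5p, from 2 hairpins of the same cluster, was 105 in Dicer and 47 in control (1.27), and miR-322*, the passenger of miR-322, was 35 in Dicer and not listed in control. The 4 hairpins lie within 6.2 kb at chrX:53048154-53054349 (GRCm38, minus strand), with no overlapping coding or long non-coding gene in GENCODE. The cluster is described here because of the high ratios of miR-503 and miR-322. Its miRNAs are also neighbours, so their common direction is not a separate result. The seed of miR-322 is that of miR-16, and the seed of miR-503 is close to it but not the same, as the sequences above show.

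The remaining miRNAs with the highest ratios were of low abundance. miR-30a was 131 in Dicer and 33 in control (2.10), miR-138 was 40 and 10 (2.07), and miR-146b was 124 and 36 (1.89). miR-138 in control was at the floor of the list. miR-34a, a target of p53, was 438 in Dicer and 141 in control (1.75), and its seed partner miR-449a was 20 and 10. miR-221, known for repressing the cell cycle inhibitor p27, was 211 in Dicer and 75 in control (1.61). miR-183, from the miR-183/96/182 cluster, was 89 in Dicer and 37 in control (1.38), beside miR-96 at 116 and 64 (0.98) and miR-182 at 216 and 138 (0.77). All 3 members of that cluster had a positive ratio, beside 49.4% of all compared miRNAs. The cluster is described here because miR-183 is among the highest ratios, so its own sign adds nothing to that count. The other 8 above 1 unit were miR-466d-3p, miR-466b-3p, miR-501-3p, miR-301a, miR-107, miR-362-3p, miR-669f and miR-374, with ratios of 1.03 to 1.30. miR-301a was 343 in Dicer and 162 in control, and miR-374, which matched miR-374b in RefSeq, was 455 and 243.

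Position was shared by several of these miRNAs, a pattern looked for after their values were seen. Among the compared miRNAs with a RefSeq match, 21 have every matched hairpin on the X chromosome, and 8 of them lay at least 1 unit above the median miRNA and 0 below, against 7 above and 4 below among the other 110. The 8 are miR-223, miR-503, miR-322, miR-221, miR-450a-5p, miR-501-3p, miR-362-3p and miR-374. They fall into fewer loci than members, since miR-503, miR-322 and miR-450a-5p are neighbours and miR-501-3p and miR-362-3p both lie in introns of Clcn5. The median of the X-linked miRNAs was 0.36, with a range of -0.88 to 5.05, and that of the others was -0.01. The labels give no sex for the animals.

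On the lower side, miR-874 was 17 in Dicer and 67 in control (relative log2 ratio -1.82). miR-181d was 57 in Dicer and 164 in control (-1.39), and its hairpin lies at chr8:84178716-84178787 (GRCm38, minus strand) in an intron of Nanos3. miR-31, known in human T cells as a repressor of FOXP3, was 499 in Dicer and 1425 in control (-1.39), from chr4:88910557-88910662 (minus strand). Of the 7 miRNAs past 1 unit below, these 3 had the lowest ratios. miR-378 was 1714 in Dicer and 4155 in control (-1.15), and its passenger miR-378* was 220 and 497 (-1.05). Both strands of that hairpin thus stood lower to nearly the same extent, and the passenger took 11.4% of the pair in Dicer and 10.7% in control. miR-219 was 53 in Dicer and 124 in control (-1.10) and miR-101a was 114 in Dicer and 260 in control (-1.06). miR-93* (17 in Dicer and 37 in control), miR-211 (26 in Dicer and 56 in control) and miR-28* (30 in Dicer and 63 in control) complete the 10 lowest.

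Of the 25 miRNAs listed in only 1 library, 10 were in Dicer and 15 in control, and 23 of them stood at 10 to 47. miR-338-3p was 113 in Dicer and not listed in control, and the next highest in Dicer was miR-708 at 47. miR-339-3p was not listed in Dicer and was 60 in control, followed by miR-700 at 30. Not listed means that every sequence of the miRNA was below 10.

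miRNAs known from regulatory T cells took a larger share of the Dicer library, 32.5% against 19.6% in control, which is mainly miR-21. Of the 7 listed members, 0 were above the median miRNA by 1 unit and 1 was below, with a median of 0.61, beside 10.8% and 4.22% of all compared miRNAs. miR-146a, which restrains NF-kB signalling, was 24622 in Dicer and 13966 in control (0.94), and miR-155, which Foxp3 induces and which keeps regulatory T cells responsive to interleukin 2, was 7208 and 5150 (0.61). With miR-21 and miR-182 these 4 had positive ratios. The other 3 had negative ratios, with miR-31 as above, miR-10a at 1453 in Dicer and 2214 in control (-0.48), and miR-125a-5p at 549 and 845 (-0.50). Members thus lay on both sides of the median miRNA. With their shared seed, miR-146a and miR-146b together were 24746 in Dicer and 14002 in control, 1.77 times as much without scaling.

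Among miRNAs known to rise when T cells are activated, 3 of 6 compared were at least 1 unit above the median miRNA and 0 below, with a median of 1.18 and a range of 0.22 to 1.89, beside 18 of 166 above in all. The 3 are miR-146b, miR-221 and miR-183, given above, and miR-183 was 0.77, under the threshold, from sequences listed in both libraries alone. miR-31, which is also counted among activation miRNAs but was listed here with the Treg-associated ones, had -1.39, and with it the list has 3 of 7 above, 1 below and a median of 0.98, an alternative chosen after seeing the data. miR-210, induced by hypoxia, was 59 in Dicer and 54 in control (0.25), and miR-22 was 14498 and 13531 (0.22). miR-132 was near the floor, at 14 in Dicer and 11 in control, and miR-212 and miR-222 were listed in neither library. The abundant member of the list, miR-22, thus had the smallest ratio.

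The list of miRNAs abundant in resting lymphocytes was mixed. Of 10 compared members, 0 were 1 unit above and 1 (miR-101a) was 1 unit below, with a median of -0.34, beside 10.8% above and 4.22% below over all compared miRNAs. miR-101a was -0.96 from its most abundant sequence alone. miR-150, which targets c-Myb and is high in mature resting T cells, was 14570 in Dicer and 13579 in control (0.22). miR-342-3p was 4083 in Dicer and 6357 in control (-0.52), miR-101b was 3046 in Dicer and 4806 in control (-0.53), and miR-26b was 6349 in Dicer and 3576 in control (0.95). Close to the median miRNA lay miR-191 (18721 in Dicer and 18027 in control, 0.18) and miR-26a (18522 in Dicer and 15834 in control, 0.35). So did miR-425 (2079 in Dicer and 2535 in control, -0.16). Lower were miR-342-5p (89 in Dicer and 166 in control, -0.77) and miR-140 (22 in Dicer and 43 in control, -0.83).

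Within the miR-181 family, which sets the sensitivity of the T cell receptor in developing T cells, all 4 members had ratios below 0, with a median of -0.65 and 1 member (miR-181d) 1 unit below, beside 49.4% above 0 and 4.22% at 1 unit below over all compared miRNAs. miR-181a, by far the most abundant, was 11488 in Dicer and 13227 in control (-0.08). miR-181b was 365 in Dicer and 638 in control (-0.68) and miR-181c was 1038 in Dicer and 1730 in control (-0.61). The less abundant members thus stood farther from the median miRNA than miR-181a. miR-181c and miR-181d are neighbours in a cluster of their own.

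The miR-17-92 cluster and its paralogs, which promote lymphocyte proliferation, had 11 of 13 members below the median miRNA and 2 above, with none at 1 unit or more and a median of -0.46. Of the 11, miR-20b (-0.29) was 0.05 from its most abundant sequence alone. Over all compared miRNAs 49.4% lay above the median miRNA, and 15.1% lay 1 unit or more from it. The 2 above were miR-92a, at 4430 in Dicer and 3619 in control (0.41), and miR-18b, at 62 and 43 (0.65). The 6 members with the seed AAAGUGC, among them miR-17, miR-20a and miR-93, summed to 18908 in Dicer and 28369 in control, a ratio of 0.667 without scaling. miR-19a and miR-19b, which share the seed GUGCAAA, summed to 1513 in Dicer and 2928 in control (0.517). The whole list took 2.65% of the Dicer library and 3.74% of the control library.

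The miR-29 family, which represses T-bet and interferon gamma in T cells, summed to 12% of the Dicer library and 18.4% of the control library. This came from miR-29a and miR-29b, since miR-29c was 3086 in Dicer and 3049 in control (0.14). All 5 members of the miR-30 family had positive ratios, with a median of 0.72, except that miR-30e (0.14) turns negative when scaled by library totals, and 1 of them, miR-30a, was above 1 unit. Over all compared miRNAs, 49.4% had positive ratios and 10.8% were above 1 unit. miR-30c was 762 in Dicer and 448 in control (0.89), miR-30b was 2234 and 1478 (0.72), miR-30d was 3606 and 2615 (0.59) and miR-30e was 4424 and 4368 (0.14). The order within the family ran against abundance, with the rarest member highest and the most abundant lowest.

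The let-7 family, which rises with differentiation, lay near the median miRNA in all 9 members, with ratios of -0.40 to 0.47 and a median of 0.21. Over all compared miRNAs, 89 of 166 lay within 0.5 of the median miRNA. Its sum was 109641 in Dicer and 121817 in control, a ratio of 0.9 without scaling. The miR-15/16 family had 4 compared members, all with positive ratios (miR-15b, at 0.09, turns negative when scaled by library totals) and 1 above 1 unit (miR-322), with a median of 0.48, beside the same 49.4% and 10.8%. miR-15a was 6652 in Dicer and 4373 in control (0.73), and miR-195 was 32 in Dicer and not listed in control. The miR-23/24/27 clusters had a median of 0.28, with 0 of 5 members at 1 unit, beside 15.1% either way over all compared miRNAs. In the cluster that holds miR-23a both miR-23a (13426 in Dicer and 10067 in control, 0.54) and miR-27a (880 in Dicer and 709 in control, 0.43) had positive ratios, and in the cluster that holds miR-23b both miR-23b (5595 in Dicer and 6762 in control, -0.15, but 0.18 from its most abundant sequence alone) and miR-27b (3702 in Dicer and 5072 in control, -0.33) had negative ones.

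Among the clusters within introns of protein-coding genes, the Clcn5 cluster had 7 compared members, 2 of them above 1 unit (miR-501-3p, 57 in Dicer and 26 in control, and miR-362-3p, 37 and 18), with a median of 0.30, beside 10.8% of all compared miRNAs above 1 unit. miR-362-3p was 0.86 with a pseudocount of 10. The 3 most abundant miRNAs of the cluster had ratios closer to the median miRNA than these 2, with miR-500 at 689 in Dicer and 711 in control (0.08), miR-532-5p at 371 in Dicer and 327 in control (0.30) and miR-362-5p at 300 in Dicer and 323 in control (0.02). The Sfmbt2 cluster, a rodent-specific array of near-identical hairpins whose sequences cannot all be told apart, had 14 compared members out of 21, with 3 above 1 unit, 0 below and a median of 0.01, beside 10.8% above and 4.22% below over all compared miRNAs. The 3 were miR-466b-3p (80 in Dicer and 35 in control), miR-466d-3p (46 in Dicer and 20 in control) and miR-669f (55 in Dicer and 27 in control), which was 0.26 with pre and loop sequences added and 0.99 when scaled by library totals. A further 5 members were listed in control at 12 to 28 and not in Dicer. In the list of miR-99, miR-100 and miR-125 miRNAs, 2 of 5 members were compared, with 0 at 1 unit, beside 15.1% of all compared miRNAs. Of these, miR-99b was 149 in Dicer and 141 in control (0.20).

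**Figure D3:**
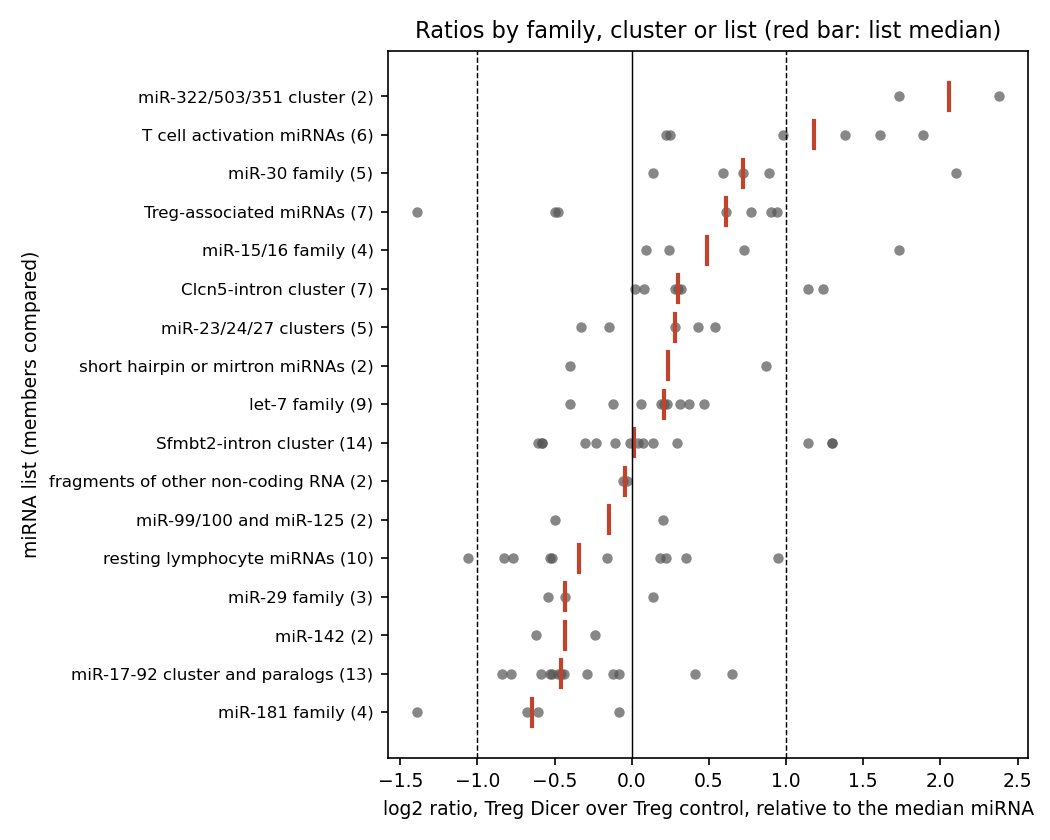
Relative log2 ratio, Treg Dicer over Treg control, of each compared miRNA (grey points) by family, cluster or list with at least 2 compared, their number in brackets, the list median as a red bar and dashed lines at 1 log2 unit either side of the median miRNA. The cluster of miR-322 and miR-503 has the highest median (2.06) and the miR-181 family the lowest (-0.65).

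miRNAs made without one of the enzymes were measured in small number. miR-451, whose hairpin is too short for Dicer and is cut by an Argonaute protein, was 924 in Dicer and 1102 in control (-0.13). Both miR-320 and miR-484 are made without Drosha. miR-320 was 564 in Dicer and 811 in control (-0.40), and miR-484 was 1127 in Dicer and 671 in control (0.87). miR-877, released from a short intron by splicing, was 18 in Dicer and not listed in control. Among fragments of other non-coding RNAs, miR-720 was 247 in Dicer and 275 in control (-0.03), and miR-805 was 45 in Dicer and 51 in control (-0.06). miR-451 and these fragments, none of which needs Dicer, thus lay close to the median miRNA.

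The Treg Drosha library shares the Treg control library, so its values are given side by side only. The 25 miRNAs past 1 log2 unit in Dicer were picked by their distance from this same control library. That choice by itself favours the same side in Drosha, so the sides are not counted here. Among the 25, miR-362-3p was 13 in Drosha, beside 37 in Dicer and 18 in control, and so lay on the other side of control. Among the others, miR-34a was 487 in Drosha, beside 438 in Dicer and 141 in control. The part of the shared control library in these differences was not tested. miR-223 was 588 in Drosha, beside 746 in Dicer and 24 in control, and miR-503 was 271, beside 169 in Dicer and 35 in control. miR-21 was 275990, beside 294500 in Dicer and 171793 in control, and miR-31 was 750, beside 499 in Dicer and 1425 in control. miR-181a, at 59531 in Drosha, and miR-484, at 11746, stood far above both of the other Treg libraries. The DN3 thymocyte libraries, in which Dicer was deleted with Lck-cre, have their own control. There miR-223 was 121 in Dicer and 28 in control (2.07), miR-503 was 314 and 292 (0.08), miR-322 was 808 and 793 (0.00), miR-21 was 64371 and 51578 (0.29) and miR-31 was 1850 and 3139 (-0.79).

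The parts of the hairpin took slightly different shares. By the authors' categories, guide sequences were 99% of the deposited value in Dicer and 98.5% in control, passenger sequences 0.626% and 0.948%, and sequences called pre 0.381% and 0.549%. Of the passenger value, 6365 in Dicer and 9504 in control, miR-140* alone held 2234 and 3505. The only loop sequence, of miR-142, was 61 in Dicer and 138 in control. Of the 22 compared passenger miRNAs, 7 were above the median miRNA and 15 below, with a median of -0.26, beside 49.4% above over all compared miRNAs and a median of 0.05 over the other 144. In the 21 compared pairs of a guide and a passenger marked by an asterisk, the passenger had the lower ratio in 11 and the higher in 10. The median difference was -0.01. Hairpins with both strands compared but named by arm, such as miR-142, are not among the 21. With the strands as named, neither order was the more common by more than 1 hairpin. The pair of miR-140 is counted among the 10, although miR-140* was 99% of it in Dicer and 98.8% in control. Reversing that pair would widen the gap between the orders.

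Single pairs did differ. miR-21* was 1156 in Dicer and 1590 in control while miR-21 was higher in Dicer, so that the passenger was 0.391% of the pair in Dicer and 0.917% in control. miR-150* was 102 in Dicer and 194 in control, or 0.695% of its pair in Dicer and 1.41% in control. miR-17* was 912 in Dicer and 1675 in control, 35.9% and 40.3% of the pair. In the other direction, miR-22* was 216 in Dicer and 136 in control, and miR-181a* was 113 in Dicer and 80 in control. miR-140* was 2234 in Dicer and 3505 in control, while miR-140, named as its guide, was 22 and 43, so the strand named passenger was the abundant one in both libraries.

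Sequences called pre summed to 3870 in Dicer and 5500 in control. miR-142 alone was 1824 in Dicer and 3656 in control, and without it the sums were 2046 in Dicer and 1844 in control, so the order turned round. Of the 20 hairpins with such sequences in both libraries, 6 had the higher value in Dicer and 13 the lower. These sequences are not whole hairpins: the longest sequence of any kind in either library had 26 nt, and those that overlap a RefSeq mature miRNA by 15 nt or more held 71.6% of the pre value in Dicer and 81.8% in control.

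The abundant miRNAs were present as several sequence variants, which mostly share the 5′ end and differ in length at the 3′ end. Over the 53 miRNAs with at least 1000 in both libraries, the main 5′ end held a median of 99.7% of the miRNA in Dicer and 99.6% in control. The value-weighted mean length was greater in Dicer for 47 of the 53 (88.7%), by a median of 0.12 nt, and shorter for 6. The widest differences were 0.40 nt longer, for miR-23b, and 0.21 nt shorter, for miR-181a. The other 5 that were shorter were miR-16, miR-142-3p, miR-103, miR-181c and miR-15a. Over the whole libraries the mean length was 21.85 nt in Dicer and 21.69 nt in control, with 7.99% and 11.6% of the value in sequences of up to 20 nt and 23.8% and 21.6% in those of 23 nt or more. The part of this library-wide length difference in the values of single miRNAs was not tested. The Treg Drosha library had a mean length of 21.88 nt, and 40 of the 53 miRNAs were longer there than in the same control library.

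**Figure D4:**
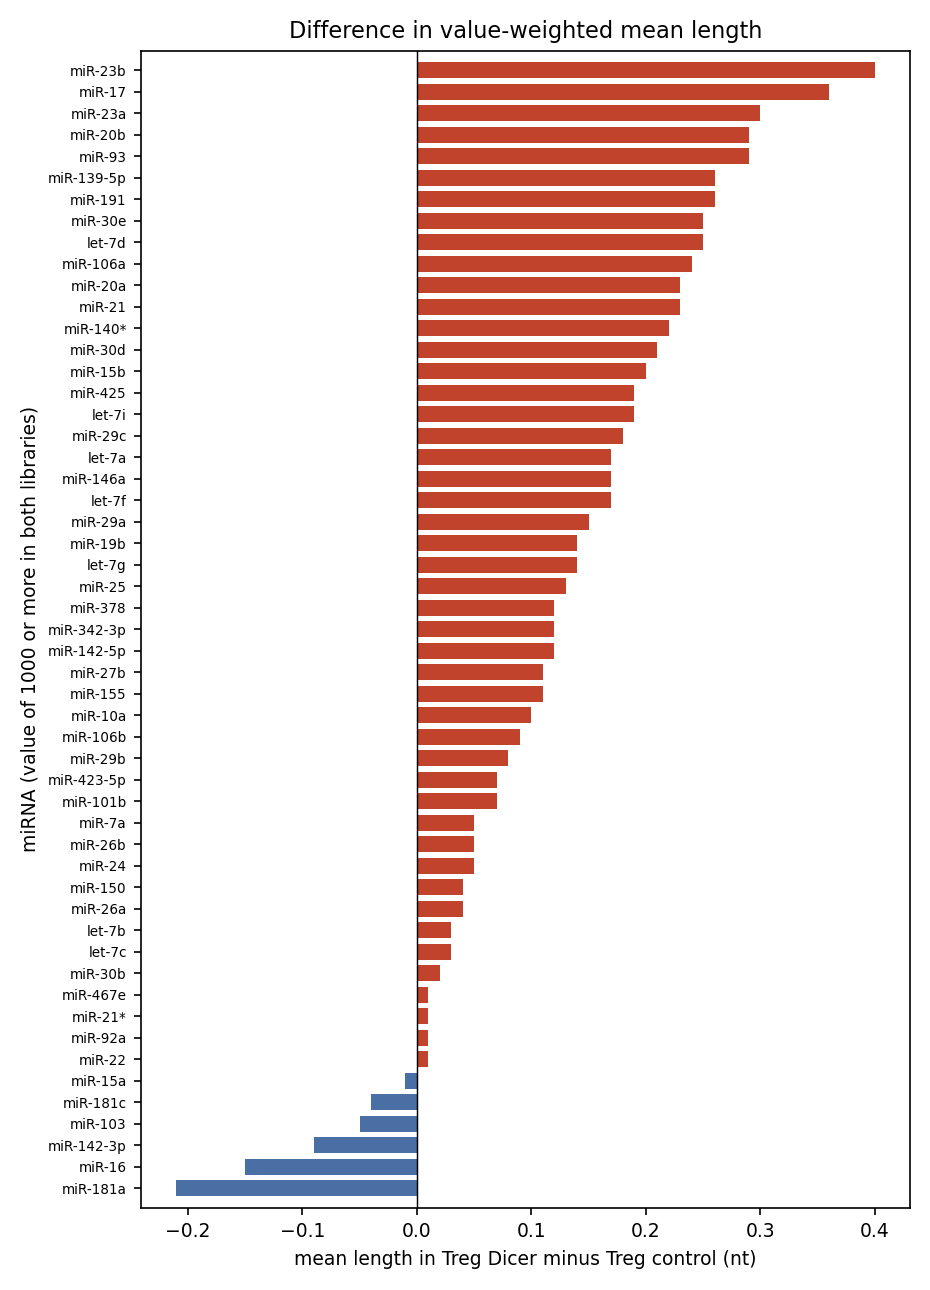
Difference in value-weighted mean length, Treg Dicer minus Treg control (nt), for each of the 53 miRNAs with at least 1000 in both libraries. Red bars (longer in Dicer, 47 miRNAs) reach 0.40 nt for miR-23b and blue bars (shorter, 6 miRNAs) reach -0.21 nt for miR-181a.

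The most abundant sequence was the same in both libraries for 46 of the 53 miRNAs. For the other 7, namely miR-16, miR-29b, miR-29c, miR-93, miR-17, miR-30d and miR-142-3p, the libraries led with different lengths of the same miRNA. Between the libraries, a median of 7.78% of the value of a miRNA would have to move to other variants to make the profiles equal, from 0.469% for miR-15a to 15.4% for miR-17. miR-21 and miR-16, the most abundant pair, show both directions. Their forms are given as deposited, with the bases beyond the 20-nt form in capitals.
miR-21, 20 nt: tagcttatcagactgatgtt
miR-21, 21 nt: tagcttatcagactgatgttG
miR-21, 22 nt: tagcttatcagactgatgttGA
miR-21, 23 nt: tagcttatcagactgatgttGAC
miR-16, 20 nt: tagcagcacgtaaatattgg
miR-16, 22 nt: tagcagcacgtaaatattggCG
miR-16, 23 nt: tagcagcacgtaaatattggCGT
For miR-21 the 21-nt form was 61172 in Dicer and 54395 in control, which is 20.8% and 31.7% of the miRNA, and the 23-nt form was 71726 and 27109, or 24.4% and 15.8%. The longer form thus took a larger share in Dicer. For miR-16 the 22-nt form was 60361 in Dicer and 44971 in control (48.5% and 39.1%), and the 23-nt form was 48009 and 57717 (38.6% and 50.2%). Here the shorter form led in Dicer and the longer in control.

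The miR-29 members also differed in length between the libraries, as the 2 main forms of miR-29a show (capitals mark bases beyond its 19-nt form).
miR-29a, 21 nt: tagcaccatctgaaatcggTT
miR-29a, 22 nt: tagcaccatctgaaatcggTTA
The 21-nt form of miR-29a was 25951 in Dicer and 51580 in control (46.8% and 59%), and its 22-nt form was 22640 and 25783 (40.9% and 29.5%). For miR-29a the difference between the libraries was therefore mostly in the shorter form. miR-29c, whose total was nearly equal, had 40.8% in Dicer and 53.9% in control in the 21-nt form, and 51.4% and 38.1% in the 22-nt form. In miR-17, the 23-nt form was 45% in Dicer and 36.6% in control.

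miR-142-5p had the largest shift of the mean 5′ end among the 53 miRNAs, at 0.17 nt. Its hairpin at chr11:87756864-87756927 (GRCm38, plus strand), in an intron of the non-coding gene Mir142hg, gives forms that start at different bases and so carry different seeds. The leading sequence at each of 3 starts is given as deposited, with bases 2 to 8 in capitals, and the start counted from the RefSeq mature sequence.
miR-142-5p, start 0: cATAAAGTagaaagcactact
miR-142-5p, start -2: cCCATAAAgtagaaagcact
miR-142-5p, start -3: aCCCATAAagtagaaagcacta
All sequences that start at 0 summed to 31808 in Dicer and 46058 in control, 0.691 times as much without scaling. Those that start at -2 summed to 21335 in Dicer and 43512 in control (0.49), and those at -3, which the authors call pre, to 1824 in Dicer and 3656 in control (0.499). The RefSeq start held 54.6% of the 5′ arm in Dicer and 46.8% in control, and the start at -2 held 36.6% and 44.2%. The forms at -2 and -3 thus had lower ratios than the RefSeq form. Those that start at 1, also with a shifted seed, summed to 3162 in Dicer and 4817 in control (0.656), or 5.43% of the 5′ arm in Dicer and 4.9% in control. The Treg Drosha library had 56.1% and 36% at these starts. In DN3 thymocytes the start at -2 held 38.7% in Dicer and 35.6% in control, the opposite order.

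**Figure D5:**
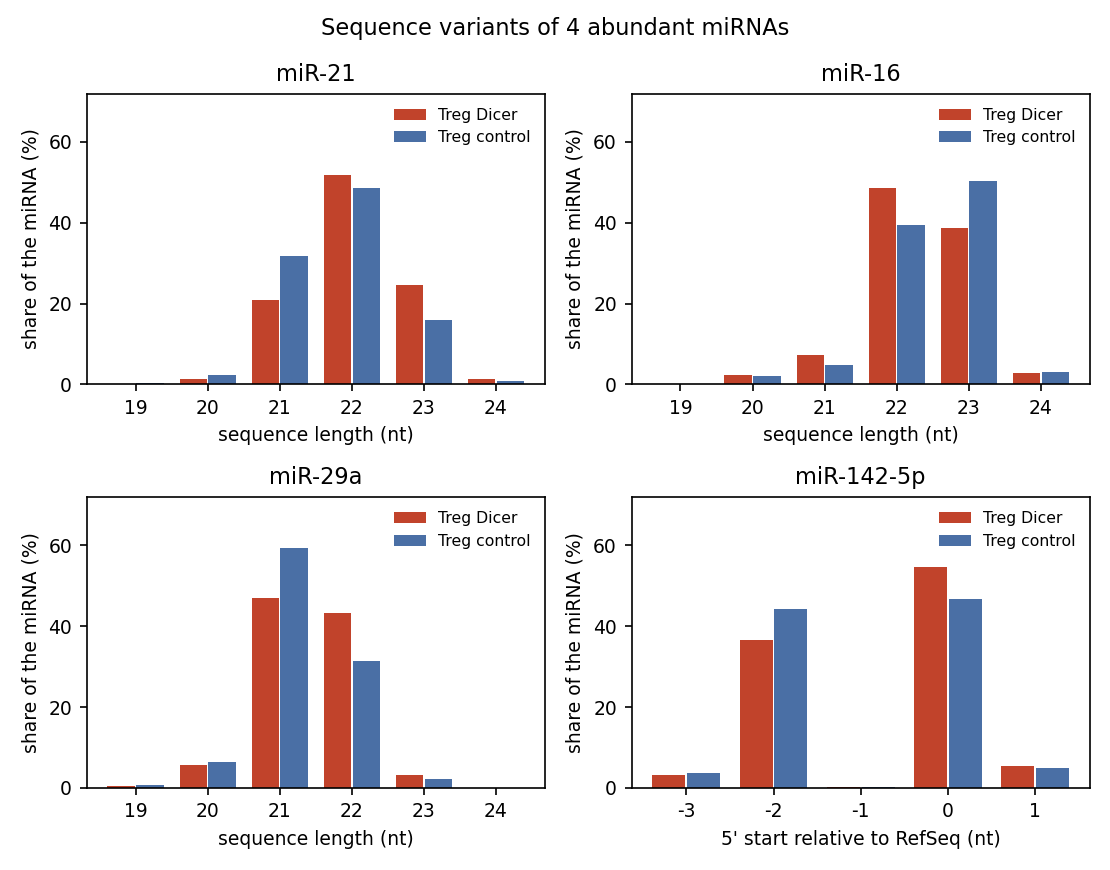
Share of the miRNA (%) by sequence length for miR-21, miR-16 and miR-29a, and by 5′ start relative to RefSeq for the 5′ arm of miR-142, in the Treg Dicer library (red) and the Treg control library (blue), 1 library each. The 23-nt share of miR-21 is larger in Dicer and that of miR-16 is larger in control, and the start at -2 of miR-142-5p is 36.6% in Dicer and 44.2% in control.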

How the data were processed

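The deposited miRNA files give each distinct sequence with its hairpin, its part of the hairpin and a value headed as a normalised mapping count. These values are scores, normalised and rounded by the authors, and sum to 1016507 in the Dicer and 1002325 in the control library. Per the labels, adaptors were clipped and reads were mapped to miRNA loci. The aligner, the miRBase release and the genome build are not given in the sources used here. Low values fell on no common step (at most 69.3% of the Dicer and 48.6% of the control values, tolerance 0.6), so the depth is unknown.

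Values were added up over the guide and passenger sequences of each miRNA name, without the copy number. Pre and loop sequences were kept apart because they carry hairpin names. Ratios used a pseudocount of 0.5 and a minimum sum of 50, and variants were described at 1000 or more in both libraries. With 1 library per group, a threshold of 1 log2 unit replaced a test. The named miRNAs are the 10 most abundant per library, the 10 highest and 10 lowest ratios, those listed in 1 library at 50 or more, and the members of the families and marker lists. The members and lists were chosen with earlier results of these data known. Python 3.11.15 and matplotlib 3.10.9 were used, and the ratio step was tested on simulated data. Hairpins were placed against RefSeq (GRCm38.p6) and GENCODE.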

Additional observations from a re-analysis of the deposited data

Results flagged for a closer look

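For 5 miRNAs, the ratio in regulatory T cells passed 1 log2 unit and the ratio in DN3 thymocytes, Dicer over control, lay at least 0.5 on the other side of the median miRNA. Each cell type has 1 library per genotype, so the difference between the cell types was not tested. miR-34a was 1.75 in regulatory T cells and -0.61 in DN3 cells, with 486 in Dicer and 730 in control there. miR-450a-5p was 1.27 and -0.66 (220 in DN3 Dicer, 342 in DN3 control), miR-301a was 1.20 and -1.15 (667 and 1458), and miR-107 was 1.19 and -0.84 (316 and 557). The passenger miR-378* was -1.05 in regulatory T cells and 0.58 in DN3 cells (471 and 310).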

How the results depend on the processing

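No paired analysis was possible because each group has 1 library, and for the same reason no library could be left out. The counts of miRNAs past 1 log2 unit, 18 above and 7 below, depended on the low values. With at least 100 in each library, 6 of 109 were above and 3 below, and with sequences of 50 or more only, 11 of 118 were above. Scaling by the library total gave 11 below, beside 15 above. A threshold of 1.5 log2 units gave 8 above and 1 below. With a minimum of 100 in place of 50, 0 miRNAs were listed only in control, against 1. Of the 111 named miRNAs that were compared, 95 showed no change of sign under any alternative run. These 95 include miR-144 and miR-200a, which stood at the median miRNA itself (0.00) and so had no sign to keep. The 16 that changed sign had main ratios within 0.29 of the median miRNA, 9 of them changing with library totals. The ratio of miR-223 (5.05) was 4.17 from the most abundant sequence alone and 4.19 from sequences listed in both libraries, that of miR-138 was 1.43 with a pseudocount of 10, and that of miR-183 was 0.77 from sequences listed in both. With pre and loop sequences added, miR-140 was -0.09 and miR-669f 0.26. Adding pre and loop sequences, an alternative chosen after seeing the data, gave 17 above and 7 below of 170. The floor of 10 per sequence limits what can be said of miRNAs below about 50.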
